A study of Mus musculus with 16 samples.

Results

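Active chromatin of adult enterocytes was set against that of the gut epithelium at E14.5 (E stands for embryonic day) in the mouse small intestine. It was read from peaks of H3K27ac, in which lysine 27 of histone H3 carries an acetyl group, measured by chromatin immunoprecipitation and sequencing (ChIP-seq). The peaks of the 2 enterocyte libraries and the 2 E14.5 libraries were merged where they overlapped or touched, which gave 63250 regions. A region was called gained when both enterocyte libraries and neither E14.5 library had a peak in it, and lost in the reverse case. There were 6248 gained and 17770 lost regions, so 24018 of the 63250 regions were called one way or the other. Another 16022 regions had a peak in all 4 libraries and are called constant here, although the length of the peaks inside them could still differ.

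The enterocytes came from males of postnatal day 60 that carried the Lgr5EGFP-Cre-ERT allele, in which the Lgr5 locus drives a green fluorescent protein and a tamoxifen-inducible recombinase. The E14.5 epithelium came from embryos, for which the labels give no sex. The labels give the same strain, mixed C57BL/6 CD1, for both. Both were sorted as positive for the epithelial surface protein EpCAM and negative for CD31 and CD45, which mark endothelial cells and leukocytes, and for the dye DAPI, which enters dead cells. That gate holds no marker of absorptive cells, so other EpCAM-positive cells could be in either sort. The series also has 2 libraries of adult Lgr5-positive intestinal stem cells (ISC), taken from crypts of males of the same age and allele, and 2 libraries of E12.5 epithelium, and it describes each pair as biological duplicates.

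H3K27ac is laid down by the acetyltransferases p300 and CBP and marks promoters and enhancers in use, while the same regions lack it where they are silent. Enterocytes are the absorptive cells of the villus, and in the adult they descend from the Lgr5-positive stem cells at the crypt base. At E14.5 the epithelium is still a proliferating layer from which the villi form. A peak gained in enterocytes is a region called in the adult sort labelled enterocyte and not at E14.5, and its state in ISC shows whether it was also called in the sorted stem cells.

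The enterocyte libraries held 42.2 and 34.6 M ChIP tags and had 36439 and 35614 peaks, against 38.6 and 54.6 M tags and 52363 and 49088 peaks in the E14.5 libraries. The peaks covered 38.8 Mb in each enterocyte library, against 65.1 and 56.9 Mb in the E14.5 libraries. The enterocyte lists were thus shorter than the E14.5 lists although the tag numbers overlapped, and a peak list cannot tell apart fewer acetylated regions and a lower yield of the immunoprecipitation. ISC replicate 2 stood apart from its partner, with 76.1 Mb covered against 51.2 Mb in ISC replicate 1 at similar depth, and for that reason each value in ISC is given for both libraries. The Jaccard index, which is the length 2 lists share divided by the length that either covers, was 0.341 ± 0.0185 for enterocytes against E14.5 (SD, 4 pairs of libraries), below the 0.712 between the enterocyte replicates and the 0.771 between the E14.5 replicates. Enterocytes had an index of 0.420 ± 0.0398 with ISC and 0.276 ± 0.0162 with E12.5 (SD, 4 pairs each), so among the other groups their peak sets overlapped most with ISC and least with E12.5. The index of E14.5 with ISC was 0.496 ± 0.00889 (SD, 4 pairs), so the ISC peak sets overlapped more with E14.5 than with enterocytes.

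The loss of embryonic regions was the larger of the changes. Gained regions were 9.88% of the merged regions and lost regions 28.1%, or 2.84 lost for each gained. With 2 libraries a group, an exact permutation test of a single region cannot go below p = 0.333, so the calls rest on presence in both libraries against none. Gained regions took up 15.2% and 14.0% of the length covered in the enterocyte libraries, and lost regions 29.5% of that in each E14.5 library. Constant regions took up 76.5% and 78.4% of the covered length in enterocytes, against 58.9% and 62.7% at E14.5. When each list was cut to the same number of top peaks, 7351 regions were gained and 11037 lost, so the excess of losses was smaller but of the same direction.

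Regions with a peak in both groups but not in every library were few. A peak in both enterocyte libraries and 1 E14.5 library occurred in 919 regions, and a peak in 1 enterocyte library and both E14.5 libraries in 2602. Regions with a peak in a single library numbered 7008 for enterocytes and 12124 for E14.5. These single-library regions are not called here.

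Gained and lost regions were alike in length and shorter than constant ones. The median was 800 bp for gained regions (quartiles 546 and 1314 bp), 846 bp for lost regions (539 and 1438 bp) and 2241 bp for constant regions (1523 and 3355 bp). Regions of 2 kb or more made up 11.1% of the gained and 13.1% of the lost ones. At 5 kb or more there were 37 gained and 165 lost regions, the embryonic side having the longer tail.

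Strength, read as the rank of a region's best peak by the authors' −log10 q within its own list, placed the called regions in the lower middle of each list. The median percentile was 45.7 and 38.8 for gained regions in the enterocyte libraries, and 48.7 and 40.8 for lost regions in the E14.5 libraries. Constant regions had medians of 73.4 and 75.6 in enterocytes and 82.6 and 81.3 at E14.5, so the strongest peaks of both cell populations were mostly shared. Of the 6949 regions at or above percentile 75 in both enterocyte lists, 96.5% had a peak in all 4 libraries and 180 were gained. Of the 11079 regions at or above percentile 75 in both E14.5 lists, 86.2% had a peak in all 4 libraries and 988 were lost. Strong regions with no peak in the other group were thus 2.59% of those of enterocytes and 8.92% of those of E14.5. Percentile 75 was taken within lists of unequal length, and these shares were not repeated with lists of equal length.

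Among the gained regions, 2210 (35.4%) had a peak in both ISC libraries, 1219 (19.5%) in 1 and 2819 (45.1%) in none. By library, ISC replicate 1 had a peak in 35.7% of the gained regions and ISC replicate 2 in 54.5%. Among the lost regions, 6268 (35.3%) had a peak in both ISC libraries, 3160 (17.8%) in 1 and 8342 (46.9%) in none, and the shares by library were 35.5% and 52.8%. The mean over the ISC libraries was 45.1 ± 13.3% of gained and 44.2 ± 12.2% of lost regions (SD, n = 2). The shares of the classes in both ISC libraries lay close together here, but not at each setting: without enterocytes replicate 2 they were 27.5% of gained and 40.2% of lost regions, with the stricter peak threshold (−log10 q of 10) 36.5% and 43.3%, and without E14.5 replicate 2 they were 36.5% of gained and 28.0% of lost regions. No order of the classes in ISC is drawn from them. Constant regions were in both ISC libraries in 95.5% of cases, and merged regions of all kinds in 47.3%.

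The classes differed widely at E12.5. There, 58 gained regions (0.928%) had a peak in both libraries and 6056 (96.9%) in neither. Of the lost regions, 10361 (58.3%) had a peak in both E12.5 libraries, 2887 (16.2%) in 1 and 4522 (25.4%) in neither. Of all merged regions, 44.2% had a peak in both E12.5 libraries and 44.3% in neither. The shares by E12.5 library were 1.12% and 2.88% for gained regions and 59.6% and 73.3% for lost regions. Almost all gained regions were thus without a peak at both embryonic ages, and most lost regions had a peak at E12.5 as well.

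**Figure D1:**
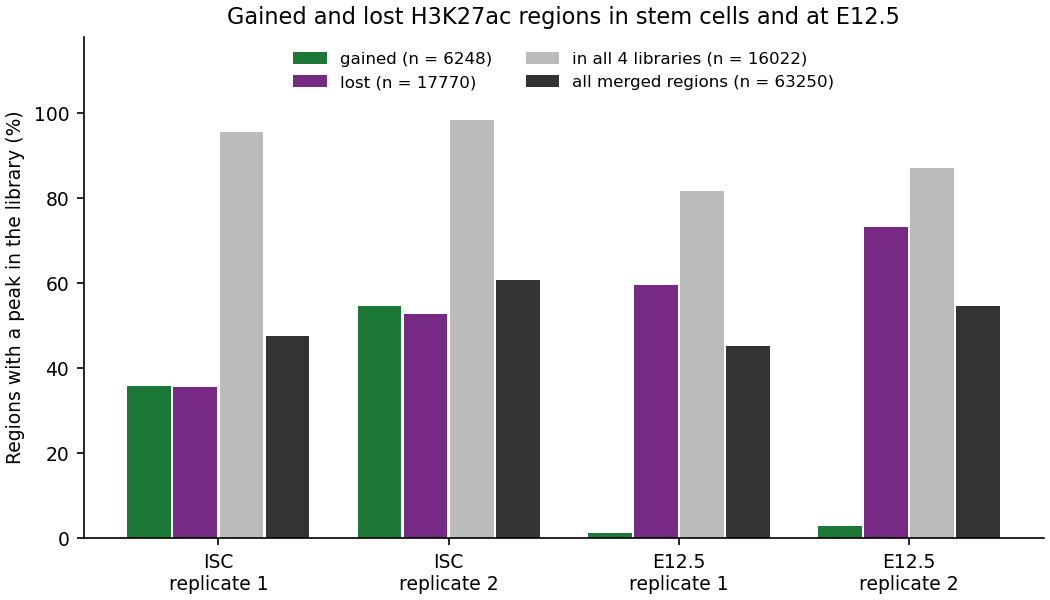
Share of the gained, lost, constant and all merged regions (y axis, percent) that held at least 1 bp of peak in each ISC and E12.5 library (x axis). In ISC replicate 1 the gained and lost bars stand at 35.7% and 35.5% and in replicate 2 at 54.5% and 52.8%, while at E12.5 the gained bars stay at 1.12% and 2.88% and the lost bars reach 59.6% and 73.3%.

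Read together, ISC and E12.5 split each class into a few patterns. For gained regions, 2127 (34.0%) were in both ISC and no E12.5 library, that is marked in adult stem cells and enterocytes but not called in the embryo at either age. Another 2748 (44.0%) were in none of these 4 libraries, and so were called in enterocytes alone among the 4 groups. For lost regions, 4640 (26.1%) were in both E12.5 libraries and no ISC library, with a median length of 896.5 bp, and were called in the embryo alone. Another 3971 (22.3%) were in both E12.5 and both ISC libraries, with a median of 1380 bp, and so lacked a peak in enterocytes alone. A peak at E14.5 only, in none of the ISC and E12.5 libraries, was found for 2252 lost regions (12.7%), which were short (median 550 bp), and 1438 (8.09%) were in both ISC and no E12.5 library.

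Presence in ISC went up with the length of the region. For gained regions the share in both ISC libraries was 26.1% under 0.5 kb, 29.2% from 0.5 to 1 kb, 43.0% from 1 to 2 kb, 54.2% from 2 to 4 kb and 79.1% at 4 kb or more. For lost regions the shares in the same order were 21.9%, 30.5%, 40.7%, 57.1% and 65.8%. The share with at least 50% of the region covered in both ISC libraries lay between 21.6% and 33.7% for gained and between 20.2% and 26.4% for lost regions over the same 5 length classes, a rule that asks for more covered bases in longer regions. Strength also went with presence in ISC, since gained regions in both ISC libraries had median percentiles of 50.6 and 47.3 in the enterocyte lists, and those in no ISC library 41.5 and 33.8. The part of region length and of peak strength in the trend was not tested. In both E12.5 libraries, lost regions were found in 33.7% of cases under 0.5 kb and in 97.0% at 4 kb or more.

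**Figure D2:**
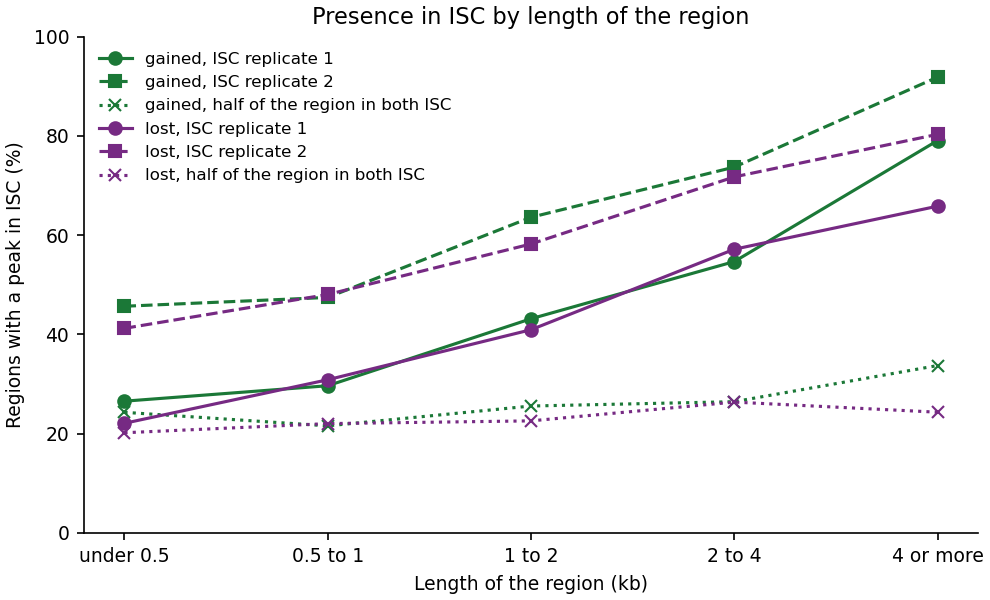
Share of gained and lost regions with a peak in each ISC library, and with at least 50% of the region covered in both ISC libraries (y axis, percent), by length of the region (x axis, kb). Solid and dashed lines, the 2 ISC libraries with any overlap, climb with length for both classes, and the dotted lines of the 50% rule stay between 20.2% and 33.7%.

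Of the 100 longest gained regions (3.28 kb or more), 80 were in both ISC libraries, 12 in 1 and 8 in none, and 96 were in no E12.5 library. Enterocyte peaks covered a median of 4.36 and 4.25 kb of them, and ISC peaks 1.70 and 2.94 kb. Of the 100 longest lost regions (5.32 kb or more), 61 were in both ISC libraries and 25 in none, and all 100 were in both E12.5 libraries. The E14.5 peaks covered a median of 6.57 and 6.28 kb of them and E12.5 peaks 5.58 and 6.13 kb, but ISC peaks 0.621 and 1.70 kb. The ISC peaks in the long lost regions thus mostly covered a small part of them.

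The longest gained regions were stretches of near-continuous acetylation in enterocytes with no peak at E14.5. Positions are given on the mouse build mm9, on which the authors' files stand. On chromosome 9, the region from 44478921 to 44488988 had 9.57 and 9.78 kb of peak in the enterocyte libraries and 0 in both E14.5 libraries, and the ISC libraries had 1.75 and 5.18 kb. On chromosome 4, the region from 148157414 to 148166165 had 8.71 and 8.55 kb in enterocytes and 0 at E14.5, and 7.31 and 8.40 kb in ISC. On chromosome 15, the region from 85529370 to 85538019 had 8.42 and 8.63 kb in enterocytes and 0 at E14.5, and 7.37 and 8.47 kb in ISC. The chromosome 4 and 15 regions were covered almost to their full length in ISC, whereas the chromosome 9 region was only partly so.

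Chromosome 13 held the one with the least coverage in ISC (73831973 to 73839607). It had 7.64 and 7.14 kb of peak in enterocytes, 0 in both E14.5 libraries, 0 in ISC replicate 1 and 1.08 kb in ISC replicate 2. Next was one on chromosome 11 (105809219 to 105815469), which had 6.24 and 5.90 kb in enterocytes, 0 at E14.5, and 0.867 and 2.48 kb in ISC. Both were long in enterocytes and had little coverage in ISC. The remaining regions of the 8 longest lay on chromosome 10 (95220319 to 95227824, 7.51 and 6.61 kb in enterocytes), chromosome 2 (57101854 to 57108542, 6.58 and 6.69 kb) and chromosome 4 (148207194 to 148213931, 6.56 and 6.64 kb), each with 0 kb at E14.5 and 3.42 to 6.70 kb in the ISC libraries. At E12.5 the 8 regions held no peak, except for 0.003 kb at the edge of the chromosome 11 region in replicate 2.

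Each of the 8 longest lost regions was longer than the longest gained one. On chromosome 7, the region from 149737507 to 149765255 had 0 kb of peak in both enterocyte libraries and 27.5 and 27.1 kb in the E14.5 libraries. It had 0 kb in both ISC libraries and 26.7 and 27.7 kb at E12.5, so it was fully covered in the embryo and without a peak in all 4 adult libraries. Chromosome 9 from 114452080 to 114475187 had no peak in enterocytes and 22.9 and 22.7 kb at E14.5, and 0.222 and 1.14 kb in ISC. Positions 44200092 to 44210783 of chromosome 10 likewise lacked a peak in enterocytes, against 10.6 and 10.7 kb at E14.5, and it had 0 kb in both ISC libraries.

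Coverage in ISC varied among the other long lost regions. On chromosome 8, positions 111245590 to 111260797 held no peak in enterocytes and 15.0 and 14.4 kb at E14.5, with 3.75 and 6.19 kb in ISC. On chromosome 4, positions 62690269 to 62700707 held no peak in enterocytes and 10.4 and 10.3 kb at E14.5, with 4.12 and 6.92 kb in ISC. Those on chromosome 7 (140215020 to 140230468, 15.0 and 14.0 kb at E14.5), chromosome 12 (3779106 to 3790662, 11.5 and 11.4 kb) and chromosome 19 (44366003 to 44376623, 10.5 and 10.3 kb) completed the 8 longest, all with 0 kb in enterocytes. In ISC the chromosome 7 region had 2.22 and 3.94 kb and that on chromosome 19 had 2.70 and 4.64 kb, whereas that on chromosome 12 had 0 kb in replicate 1 and 1.75 kb in replicate 2. Each of the 8 lost regions had at least 7.20 kb of peak in both E12.5 libraries.

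**Figure D3:**
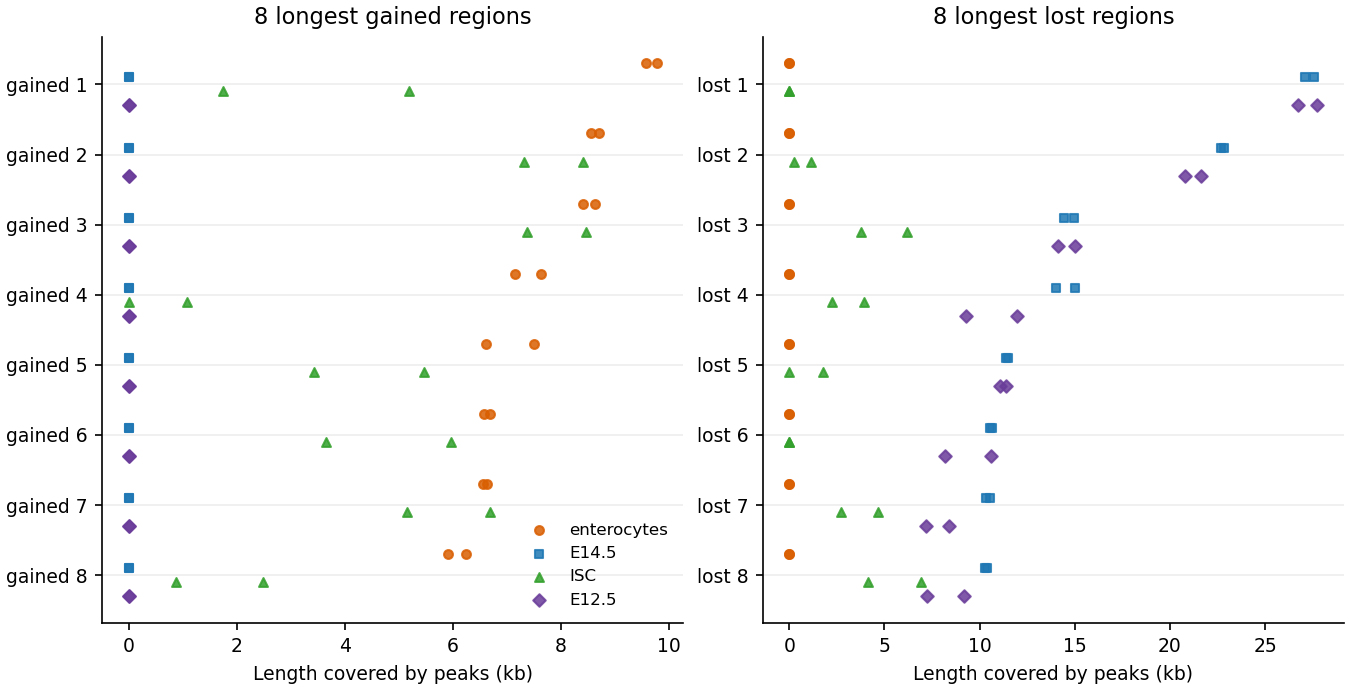
Length covered by peaks (x axis, kb) in the 8 longest gained (left) and 8 longest lost regions (right), 1 point per library, regions numbered from the longest down. Enterocyte points lie between 5.90 and 9.78 kb in the gained panel and at 0 in the lost panel, the E14.5 points do the reverse with 10.3 to 27.5 kb in the lost panel, and the ISC points are spread between 0 and 8.47 kb.

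Gained regions lay nearer to constant regions than lost ones did. The median distance to the nearest constant region was 8.38 kb for gained and 30.9 kb for lost regions. Within 10 kb of one were 54.1% of the gained and 28.6% of the lost regions, and 50 kb or more away were 827 gained (13.2%) and 7046 lost regions (39.7%). The difference was there at each length of region, with medians of 7.27 to 9.13 kb for gained and 28.7 to 32.3 kb for lost regions over the 5 length classes. It also kept its direction at each other setting tried, with 6.64 to 12.0 kb for gained and 23.3 to 43.0 kb for lost regions. The distances are a description of positions, which are not independent of each other, and no test was made of them.

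Distance went with presence in ISC for lost regions. Lost regions were in both ISC libraries in 42.4% of cases within 10 kb of a constant region, 36.7% from 10 to 50 kb and 29.0% beyond, and gained regions in 37.3%, 32.9% and 33.4%. The same-class neighbour was close for both, at a median of 3.14 kb for gained and 5.42 kb for lost regions. It lay within 2 kb for 46.7% of gained and 39.0% of lost regions. Merging peaks within 1 kb left 3459 gained and 12546 lost regions, so this closeness depends in part on the merging rule. The nearest lost region was a median of 49.9 kb from a gained one, and a lost region lay within 10 kb of 760 gained regions (12.2%) and within 50 kb of 3127 (50.0%).

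**Figure D4:**
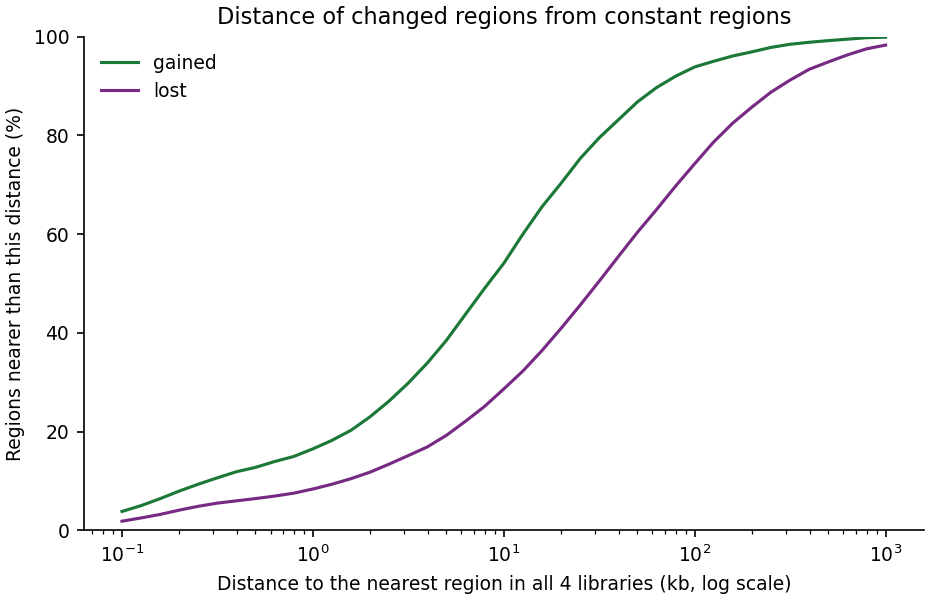
Cumulative share (y axis, percent) of gained and lost regions by distance to the nearest region with a peak in all 4 libraries (x axis, kb, log scale). The curve of gained regions runs above that of lost regions over the whole plotted range, with 54.1% of gained and 28.6% of lost regions within 10 kb.

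The 200 kb stretches that held the most gained or lost regions, chosen for that count, are given as a description. The densest gained stretch, on chromosome 19 from 32537023 to 32737022, held 22 gained and 0 lost regions and 7 constant ones. Peaks covered 36.1 and 47.2 kb of it in enterocytes, against 14.3 and 13.0 kb at E14.5, and 8.68 and 22.1 kb in ISC. Of its 22 gained regions, 6 were in both ISC libraries. On chromosome 15, the stretch from 85429785 to 85629784, which holds one of the longest gained regions, had 16 gained and 0 lost regions, of which 13 were in both ISC libraries. It was covered over 49.8 and 52.2 kb in enterocytes, against 14.51 and 13.4 kb at E14.5, and over 58.0 and 71.3 kb in ISC, whose libraries have more covered length in all. The stretch on chromosome 4 from 55605704 to 55805703 differed from it in this respect, since only 1 of its 16 gained regions was in both ISC libraries. The stretch on chromosome 5 from 136038745 to 136238744 had 17 gained and 0 lost regions.

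The densest lost stretch lay on chromosome 11 from 112898621 to 113098620 and held 33 lost and 0 gained regions. Peaks covered 3.37 and 4.16 kb of it in enterocytes, against 84.5 and 72.8 kb at E14.5. In ISC they covered 54.1 and 86.1 kb, and 20 of the 33 lost regions were in both ISC libraries, so this stretch was marked in the embryo and in stem cells and nearly bare in enterocytes. On chromosome 8, the stretch from 34909693 to 35109692 had 27 lost regions and was nearly bare in ISC as well, with 3.18 and 2.59 kb in enterocytes, against 72.3 and 62.2 kb at E14.5, and 3.02 and 5.91 kb in ISC. The stretch on chromosome 12 from 80899719 to 81099718 had 31 lost regions, with 0 and 0.234 kb covered in enterocytes, against 53.2 and 43.0 kb at E14.5. The stretch on chromosome 17 from 47988197 to 48188196 had 29, with 7.07 and 9.61 kb in enterocytes, against 82.8 and 75.9 kb at E14.5.

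By chromosome, gained regions made up 7.62% of the merged regions on chromosome 15 and 13.1% on chromosome 19, the lowest and highest shares among the chromosomes other than Y. Lost regions made up 22.6% on chromosome 19 and 33.4% on chromosome X, again the ends of the range. There were 107 gained and 439 lost among the 1313 regions of chromosome X. The enterocytes came from males and the embryos' sex is not given, so sex and age cannot be told apart there, and without chromosomes X and Y there were 6141 gained and 17331 lost regions.

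Covered length per fixed window allowed a test across the genome. In 20 kb windows with a peak in at least 2 of the 8 libraries, the covered length was scaled by each library's total and compared between enterocytes and E14.5 with limma on log2(bp + 500), with Benjamini-Hochberg adjustment over all 30733 windows. At an adjusted p under 0.05, 5737 windows (18.7%) were higher and 11121 (36.2%) lower in enterocytes. Without the scaling 2980 were higher and 13464 lower, so the share of calls that were higher was 34.0% with scaling and 18.1% without, and the median log2 change of all windows was −0.25 with scaling and −0.56 without. The p-values rest on the spread between the 2 libraries of each of the 4 groups, ISC and E12.5 included. That spread was pooled over the groups and drawn toward that of the other windows. A group without a peak in either library sits at the floor of the log scale in that window and adds no spread. The errors and p-values of such windows, most of the named ones among them, may thus be too small.

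Higher windows mostly had a peak at E14.5, as did the tested windows of all kinds. Their median covered length was 2.96 and 2.74 kb in enterocytes and 1.34 and 1.15 kb at E14.5, and 1572 of the 5737 had no E14.5 peak. Lower windows were more often bare on the other side, with medians of 0 and 0 kb in enterocytes and 1.71 and 1.46 kb at E14.5, and 7761 of the 11121 had no enterocyte peak. Of all 30733 tested windows, 4959 had no E14.5 peak and 13167 no enterocyte peak. Windows without an enterocyte peak were thus the more frequent kind among all windows too. Windows without an ISC peak were 12.0% of the higher and 30.6% of the lower ones, and 22.5% of all those tested. Gained regions lay in higher windows in 88.0% of cases, although 47 lay in lower ones. Lost regions lay in lower windows in 81.5% of cases, with 476 in higher ones. Of all tested windows, 18.7% were higher and 36.2% lower. Regions and windows were called from the same peak lists, so this overlap was largely fixed in advance.

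**Figure D5:**
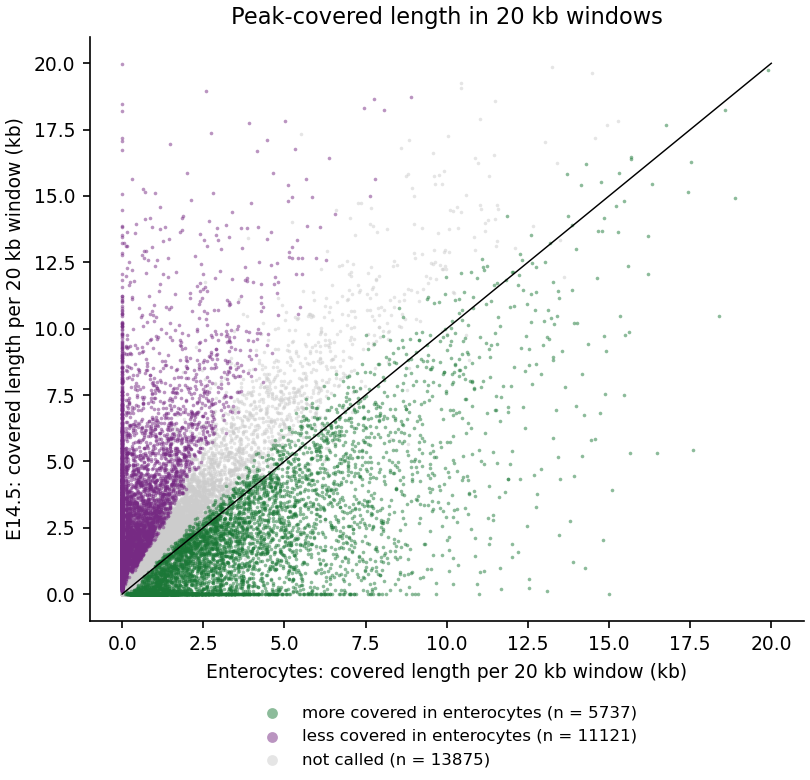
Mean covered length per 20 kb window as deposited (kb, unscaled) in enterocytes (x axis) and E14.5 (y axis), 1 point per tested window, with the line of equal length. Windows called higher (5737) and lower (11121) in enterocytes by limma are coloured, many lower windows lie on the y axis at 0 kb in enterocytes, and some called higher lie above the line because the test used lengths scaled by the library total.

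The windows with the largest changes differed by direction in how far they were covered. The 6 named higher ones had means of 8.92 to 15.0 kb in enterocytes. The 6 named lower ones had means of 16.8 to 20.0 kb at E14.5. On chromosome 4, the window from 137900001 to 137920000 had 16.0 and 14.0 kb in enterocytes and 0 kb in both E14.5 libraries, with 5.62 and 8.87 kb in ISC. Its log2 change was 5.41 ± 0.10 (SE), with an adjusted p of 1.82e-05 by limma. On chromosome 12, the window from 112660001 to 112680000 had 10.1 and 15.0 kb in enterocytes, against 0.461 and 0 kb at E14.5 (log2 change 4.72, limma adjusted p 0.000119). Separation of the enterocyte and E14.5 libraries was a condition for naming a window, and 72.6% of all tested windows met it.

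On chromosome 10, the window from 74680001 to 74700000 had 10.1 and 7.75 kb in enterocytes and 0 kb at E14.5 (log2 change 4.67, limma adjusted p 2.3e-05). The other 3 named higher windows lay in or beside long gained regions described above, on chromosomes 15, 2 and 13, with log2 changes of 4.99, 4.80 and 4.70. The chromosome 13 window, from 73820001 to 73840000, had 9.46 and 8.61 kb in enterocytes and 0 kb at E14.5, and 0 and 1.08 kb in ISC, the lowest ISC coverage of the 6.

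Among the lower windows, the one on chromosome 7 from 149740001 to 149760000 had 0 kb in both enterocyte libraries and 20.0 and 19.9 kb at E14.5, which is the whole window. Its log2 change was −5.18 ± 0.16 (SE), with an adjusted p of 2.24e-05 by limma. On chromosome 6, the window from 49160001 to 49180000 had 0 kb in enterocytes and 18.7 and 18.2 kb at E14.5, with 0.357 and 0.953 kb in ISC and 18.8 and 19.6 kb at E12.5 (log2 change −5.07, limma adjusted p 2.8e-05). It was covered at both embryonic ages and nearly bare in both adult sorts.

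On chromosome 5, the window from 113540001 to 113560000 had 0 kb in enterocytes and 17.3 and 16.2 kb at E14.5 (log2 change −4.94, limma adjusted p 6.25e-05), and it was the most covered of the 6 in ISC replicate 2, with 3.23 and 9.31 kb in the ISC libraries. The remaining 3, on chromosomes 7, 8 and 10, overlapped long lost regions, with log2 changes of −5.05, −4.97 and −4.96. Because the change is on the log2(bp + 500) scale, its size against a group at 0 depends on the added 500 bp.

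Inside the 16022 constant regions the length of the peaks still changed. Their median covered length was 1.32 and 1.41 kb in enterocytes and 1.92 and 1.78 kb at E14.5, a median ratio of 0.754. Counting regions in which every enterocyte library differed at least 2-fold from every E14.5 library, 799 (4.99%) were longer and 2223 (13.9%) shorter in enterocytes. This balance turned round when covered length was scaled by the library total, which gave 1991 longer and 634 shorter, so no direction is drawn from it. Of the 799, 706 were in both ISC libraries, and of the 2223, 2144 were. Of all 16022 constant regions, 15309 (95.5%) were, so frequent presence in ISC belongs to the class as a whole.

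Single constant regions differed by far more than that scaling. On chromosome 14, the region from 121896398 to 121907058 had 10.7 and 9.80 kb of peak in enterocytes, against 0.488 and 0.497 kb at E14.5, and 0.238 and 0.883 kb in ISC. On chromosome 4, the region from 41040875 to 41045521 had 4.48 and 4.35 kb in enterocytes, against 0.229 and 0.237 kb at E14.5, and 0 kb in both ISC libraries. On chromosome 2, the region from 33214892 to 33223433 had 8.22 and 7.37 kb in enterocytes, against 0.509 and 0.342 kb at E14.5, and 2.94 and 4.82 kb in ISC. On chromosomes 14 and 4 the ISC libraries had as little as E14.5 or not much more, and on chromosome 2 they lay in between. Chromosome 8 from 97310905 to 97314786 had 3.56 and 3.47 kb in enterocytes, against 0.230 kb in each E14.5 library.

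In the other direction, the region on chromosome 10 from 44712837 to 44724631 had 0.348 and 0.326 kb in enterocytes, against 11.8 and 11.3 kb at E14.5, with 2.64 and 3.79 kb in ISC. Chromosome 11 from 112916968 to 112924701, inside the densest lost stretch, had 0.240 and 0.234 kb in enterocytes, against 7.73 and 7.30 kb at E14.5. In ISC it had 7.68 and 7.73 kb, as much as at E14.5, and at E12.5 it had 5.26 and 6.43 kb. Beside the longest lost region, chromosome 7 from 149707725 to 149730038 had 0.979 and 0.761 kb in enterocytes, against 22.1 and 21.9 kb at E14.5, and 0.795 and 1.33 kb in ISC. Chromosome 16 from 4600162 to 4608446 had 0.361 and 0.270 kb in enterocytes, against 8.16 and 7.39 kb at E14.5.

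Domains with a single peak of 10 kb or more in both libraries of a group numbered 25 in enterocytes and 64 at E14.5. Of the 25 enterocyte domains, 22 were at least 50% covered in both E14.5 libraries and 0 were without an E14.5 peak. The region on chromosome 7 from 86977563 to 86990019 was the one under 50% covered in both E14.5 libraries, with 12.46 and 11.8 kb in enterocytes, against 3.94 and 3.82 kb at E14.5. Of the 64 domains of E14.5, 38 were at least 50% covered in both enterocyte libraries, 19 were under 50% in both, and 3 had no enterocyte peak. One of the 19, on chromosome 7 from 139760491 to 139773960, had 1.46 and 3.71 kb in enterocytes, against 13.5 and 12.7 kb at E14.5, and 13.3 and 13.5 kb in ISC. It was thus as broad in stem cells as at E14.5, and had 6.15 and 8.32 kb at E12.5.

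Where both groups had a peak, its summit was mostly at the same place. In the constant regions the strongest summits of enterocytes and E14.5 lay 83 ± 5.48 bp apart (mean of the medians and SD, 4 pairs of libraries), against 63 bp between the enterocyte replicates and 55 bp between the E14.5 replicates. In the 7402 constant regions with a single peak in each library the distance between the groups averaged 64 bp, against 52 bp between the enterocyte replicates and 46 bp between the E14.5 replicates. Over all constant regions, 15.7% to 18.1% had summits 500 bp or more apart between a library of enterocytes and one of E14.5. Between replicates it was 11.7% for enterocytes and 9.35% for E14.5. Of the 7480 constant regions whose summits agreed within 100 bp in both replicate pairs, 460 (6.15%) had summits of the groups 500 bp or more apart. Among those with a single peak in each library it was 93 of 4136 (2.25%).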

How the data were processed

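H3K27ac ChIP-seq of sorted mouse small-intestinal epithelium was deposited as 1 peak list per library. The submitters' processing notes name Bowtie 1.1.2, bcl2fastq 1.8.4, MACS2 and SAMtools 1.2, and the build mm9. Per the file headers, MACS 2.1.0.20140616 called peaks for each library separately against its own input at a q-value threshold of 0.05, with 51 bp tags and 1 tag kept per position. Per the file headers, the lists give peak positions, the pileup signal at the summit, −log10 p and −log10 q values and a fold enrichment ratio. These scores are the authors' and served for ranking and filtering inside a list.

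A library had a region with at least 1 bp of peak in it. Covered lengths are those as deposited except in the window test, where they were scaled by the library total. That test used 4 group means over all 8 libraries (limma 3.58.1 in R 4.3.3, lmFit and eBayes, 4 residual degrees of freedom) with Benjamini-Hochberg adjusted p-values, and other values came from Python 3.11.15 with numpy 2.4.6. The scripts were tested on simulated data. Without read counts by region there are no counting intervals, and the error is the spread of 2 libraries a group. That the libraries are biological duplicates is the series' statement. The main test did not pair libraries by replicate number. Replicate differences correlated at 0.0351 for enterocytes with E14.5, and at −0.176 to 0.173 over all pairs of groups.

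Named by rule were the 8 longest gained and lost regions (by the smaller covered length of their 2 libraries), the 6 windows with the largest change in each direction (groups not overlapping, 100 kb apart), the 4 densest 200 kb stretches of each class (1 Mb apart) and the 4 constant regions with the largest change each way. The broad domains named were chosen after their values were seen. The regions, rules and comparisons were chosen with earlier results of these data known. The gene table at hand is on another assembly, and coordinates were not converted: regions are given by position, no gene or sequence is printed, the planned gene lists and cell type markers were not used here, and the cell types are those of the labels. Alternatives covered the peak threshold, list length, merging distance, overlap, scaling, window size, pseudocount, filter, replicate block and leaving out each replicate.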

Additional observations from a re-analysis of the deposited data

How the results depend on the processing

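Lost regions outnumbered gained ones at each setting tried, but the counts moved. A stricter q (−log10 q from 10 upward) gave 3111 gained and 9339 lost regions, lists of equal peak number 11037 lost, and merging peaks within 1 kb 3459 gained. Leaving out 1 replicate at a time gave 6496 to 12054 gained (12054 without enterocytes replicate 2, 10920 without replicate 1) and 18651 to 29178 lost regions (29178 without E14.5 replicate 2). The share in ISC ran over 27.5% to 54.5% for gained and 28.0% to 52.8% for lost regions, and the upper ends are without ISC replicate 1. Within a setting the classes parted either way: 27.5% of gained and 40.2% of lost regions without enterocytes replicate 2, 36.5% and 43.3% with the stricter q, and 36.5% and 28.0% without E14.5 replicate 2. Constant regions longer and shorter in enterocytes numbered 351 and 722 at 3-fold, 337 and 1196 with the stricter q, 1991 and 634 with scaling, and 807 to 1370 and 2189 to 4143 with 1 replicate left out (1370 longer without E14.5 replicate 1, and 4143 and 3745 shorter without enterocytes replicates 2 and 1). All but the 3-fold rule among these constant-region settings were added after seeing the data. Higher windows numbered 2980 without scaling, 3678 in 50 kb windows and 4292 to 4708 with 1 replicate left out, and lower windows 7049 with the stricter q and 8113 to 10529 with 1 replicate left out. A leave-out assumes that the lone library varies like those of the other groups. The cause was not tested for any of these shifts.

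Replicate differences of enterocytes and E14.5 correlated at 0.0351 over the windows. Over all pairs of the 4 groups in the model the correlation ran from −0.176 (E14.5 with E12.5) to 0.173 (ISC with E12.5), and only that last pair was above 0.1. Whether libraries of the same number shared a batch was not tested. With a replicate block, 5504 windows were higher and 10741 lower. The 12 named windows kept their direction in all 143 refits in which they were tested. They were chosen for the largest change and the refits reuse the same libraries, so this is no independent support. The chromosome 13 window was not tested under the filter of a peak in at least 4 libraries. Peak lists with 2 libraries a group limit what is shown: absence of a peak is a call at the authors' threshold, and the duplicates' spread is the only error available.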

Other observations

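Some stretches of 200 kb held many gained and many lost regions. They were picked for their mixture after the values were seen. On chromosome 18, the stretch from 65056945 to 65256944 held 12 gained and 11 lost regions, and peaks covered 38.7 and 28.7 kb in enterocytes, against 40.0 and 32.2 kb at E14.5. On chromosome 6, the stretch from 72441703 to 72641702 held 11 of each, with 18.4 and 20.2 kb covered in enterocytes, against 28.8 and 24.1 kb at E14.5. On chromosome 2, the stretch from 172949210 to 173149209 held 10 of each, with 28.2 and 22.0 kb in enterocytes, against 33.8 and 30.3 kb at E14.5. On chromosome 18 the groups overlapped in covered length, and in the other stretches both enterocyte libraries were below both E14.5 libraries.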
